A study of Mus musculus with 8 samples.

Results

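Hedgehog signalling was examined through 10 of its genes in sorted mouse hepatic stellate cells from Lhx2 floxed mice without and with the Mx1Cre transgene. The 10 genes were the Dispatched genes Disp1 and Disp2, the ligand inhibitor Hhip, the receptor Ptch1, the co-receptors Boc and Cdon, the transducer Smo, and the transcription factors Gli1, Gli2 and Gli3. All 10 were found among the 19938 genes that a platform annotation pairs with probe sets of 1 gene symbol, through 11 probe sets of 35556. Disp1 had 2 probe sets, and the one with the higher mean stood for it. The group was chosen by its pathway and by the measured difference of knockout minus control, because Disp2 had one of the largest falls of all genes. The differences of the 10 genes between the groups are therefore a description and carry no test.

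Hedgehog ligands (sonic, Indian and desert hedgehog) are secreted proteins that carry cholesterol and a fatty acid, and cells release them through Dispatched. At the receiving cell a ligand binds Patched, helped by the co-receptors Boc, Cdon and Gas1, and this frees Smoothened to act at the primary cilium, where Gli proteins are turned from repressors into activators. Gli1, Ptch1 and Hhip are themselves target genes of the pathway in many tissues, and Hhip binds ligands and keeps them from Patched. In liver, ligands made by injured epithelium are known to act on stellate cells.

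Affymetrix Mouse 1.0ST arrays were hybridised with RNA of hepatic stellate cells, liver pericytes that store retinoids, 1 array for each of 8 samples. The control group was 4 samples from Lhx2 floxed mice without Cre, arrays 1 to 4, and the knockout group 4 samples from Mx1Cre+ Lhx2 floxed mice, arrays 5 to 8. Both groups had the C57BL/6J background and both had 3 treatments with poly(I:C), a double-stranded RNA, and 2 weeks after it the cells were enriched on a density gradient and sorted by the glow of their retinoids. Mx1Cre is driven by an interferon-responsive promoter that works in many cell types, so loss of Lhx2 inside and outside the stellate cells cannot be told apart, nor can Lhx2 loss and the Cre transgene. The age and sex of the mice are not stated in the labels. The labels do not say that each array came from its own mouse, so p-values measure the spread between these samples, which may be technical. Values are log2, and 1 unit is a doubling.

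Lhx2 itself had log2 levels of 11.88 to 12.07 in the control arrays and 11.09 to 11.49 in the knockout arrays, which is 63.3% of the control level (exact two-sided permutation p = 0.0286, the smallest that 4 against 4 arrays allow). It is not known here whether its probe set lies in the deleted sequence. The defining stellate markers Lrat, Des and Reln were bright in every array, and the mean of 11 stellate markers was 13.30 to 13.39 in the controls and 13.09 to 13.17 in the knockouts. Of these 11 markers, 4 fell (Reln, Hgf, Rgs5 and Angptl6), 0 rose and 7 did not pass in limma. Markers of other cells were present too. The mean of 8 hepatocyte markers ran from 9.12 to 11.38 in the controls and from 9.57 to 11.12 in the knockouts, and that of 10 sinusoidal endothelial markers from 8.43 to 11.31 and from 8.52 to 10.02. Of the controls, array 1 had the highest hepatocyte and the lowest endothelial mean, and array 4 the reverse. The mean of 9 portal fibroblast markers was higher in each knockout array (8.61 to 8.92) than in each control array (at most 8.20), with Cd34, Dpt and Mfap4 past the threshold and Thy1 at 7.34 to 7.65 in the controls and 7.27 to 7.53 in the knockouts. Over the 9 marker lists the smallest adjusted p of the exact permutation test was 0.129, for the portal fibroblast and the stellate lists. Both had non-overlapping groups and the unadjusted p of 0.0286, so 0.129 reflects the number of arrays and lists and does not show that the groups were alike. As a guide to unexpressed levels, 1190 olfactory and vomeronasal receptor genes had a median of 5.40 and a 95th percentile of 6.77.

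**Figure D1:**
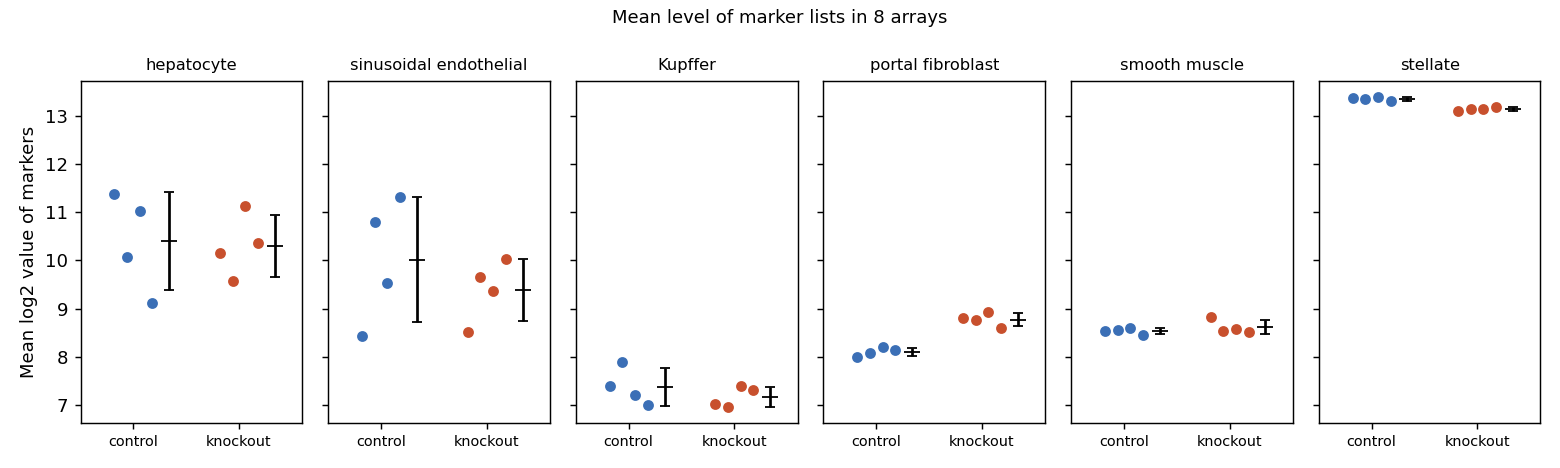
Mean log2 value of 6 marker lists (vertical axis) in the 4 control and 4 knockout arrays; points are arrays in the order of their numbers, and the bar beside them is the group mean with its SD. Hepatocyte and endothelial means vary by more than 1 log2 unit within both groups, while the portal fibroblast mean is higher in every knockout array (8.61 to 8.92) than in any control array (at most 8.20).

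The sequences just upstream of 3 genes are shown first: Hhip, which was lower in the knockout, and Dhh and Scube1, a ligand and a secreted protein of ligand release that changed as described further on. Each line holds the bases upstream of the RefSeq start (build GRCm38.p6) that lie outside the gene's own span, 5′ to 3′ on the gene's strand, which is the minus strand for all 3. They are chr8:80058061-80058258 for Hhip, chr15:98898563-98898790 for Dhh and chr15:83725052-83725289 for Scube1. Capitals mark the letters TGACGTCA, the cAMP response element.
Hhip: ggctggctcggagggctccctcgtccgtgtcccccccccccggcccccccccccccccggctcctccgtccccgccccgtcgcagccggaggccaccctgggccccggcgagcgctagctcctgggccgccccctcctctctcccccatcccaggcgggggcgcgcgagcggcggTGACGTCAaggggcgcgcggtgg
Dhh: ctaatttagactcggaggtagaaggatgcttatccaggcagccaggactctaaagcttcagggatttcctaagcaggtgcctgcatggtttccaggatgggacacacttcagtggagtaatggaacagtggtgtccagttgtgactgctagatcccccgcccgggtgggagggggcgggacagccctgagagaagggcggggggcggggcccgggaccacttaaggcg
Scube1: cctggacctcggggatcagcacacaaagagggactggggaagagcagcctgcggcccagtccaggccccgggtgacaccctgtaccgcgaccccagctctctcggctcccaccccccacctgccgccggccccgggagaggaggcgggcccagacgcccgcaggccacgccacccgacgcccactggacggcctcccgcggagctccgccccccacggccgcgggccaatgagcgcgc
The printed bases are 82.3% G and C for Hhip (198 bases), 76.1% for Scube1 (238) and 59.2% for Dhh (228). The median of all RefSeq windows is 52.4%, over the full 250 bases with no part left out, so the stretches are not quite alike. Neither the Gli consensus TGGGTGGTC nor the homeodomain core TAATTA, searched on both strands, was found in the 250 bases upstream of Hhip, Dhh or Scube1. Of all 32851 windows of 250 bases, 0.225% held the Gli letters and 4.84% the homeodomain letters. RefSeq windows matched 7 of the 10 pathway genes (8 windows), and there was no window for Disp2, Boc or Gli1. Neither motif was found upstream of Disp1, Smo, Hhip or Gli3, whose windows lay at least partly outside the gene's own span. Motif counts of the other matched windows are not reported here. The letters TGACGTCA, searched after the sequence had been seen, occurred in the Hhip window and in 1.55% of all windows.

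The Dispatched genes differed from each other. Disp2, a relative of Disp1 whose part in ligand release is less settled, had log2 levels of 11.97, 11.77, 11.84 and 11.82 in control arrays 1 to 4 and of 8.05, 8.18, 8.34 and 8.28 in knockout arrays 5 to 8. Every knockout array lay far below every control array, with a gap of 3.43 between the nearest arrays of the groups. The mean went from 11.85 ± 0.09 to 8.21 ± 0.13 (SD, n = 4 each), a difference of -3.64 (SE 0.07) that left 8.03% of the control level. It ranked first among the falls of all 19938 genes, and the knockout level stayed above the guide of 6.77 for unexpressed genes. In bulk samples, fewer cells with a transcript and less of it per cell cannot be told apart.

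Disp1, the transporter that releases lipid-bearing ligands, had 11.19, 11.15, 11.12 and 11.03 in the control arrays and 11.23, 11.18, 11.56 and 11.42 in the knockout arrays. Knockout arrays 7 and 8 were above the others, while array 6 lay just below control array 1. The difference was 0.22 (95% interval of the limma fit 0.03 to 0.42) and did not pass the threshold. The other Disp1 probe set had the same order of groups, from 9.22 ± 0.10 to 9.42 ± 0.16 (SD, n = 4 each), with arrays 7 and 8 again highest.

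Hhip, the secreted and membrane-bound inhibitor of hedgehog ligands, was at 12.59, 12.69, 12.73 and 12.56 in the control arrays and at 10.70, 11.10, 11.03 and 11.32 in the knockout arrays. The groups were 1.24 apart at their nearest arrays, and the knockout arrays were spread more widely than the controls, with array 5 lowest. The mean went from 12.64 ± 0.08 to 11.04 ± 0.26 (SD, n = 4 each), a difference of -1.61 (SE 0.12) that left 32.9% of the control level and ranked 21 among all falls. With hepatocyte and endothelial marker means as covariates the difference was -1.47, and without control arrays 1 and 4 it was -1.67. For Disp2 the same values were -3.59 and -3.59. The portal fibroblast and stellate means, whose groups did not overlap, were not used as covariates, so their part was not tested.

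**Figure D2:**
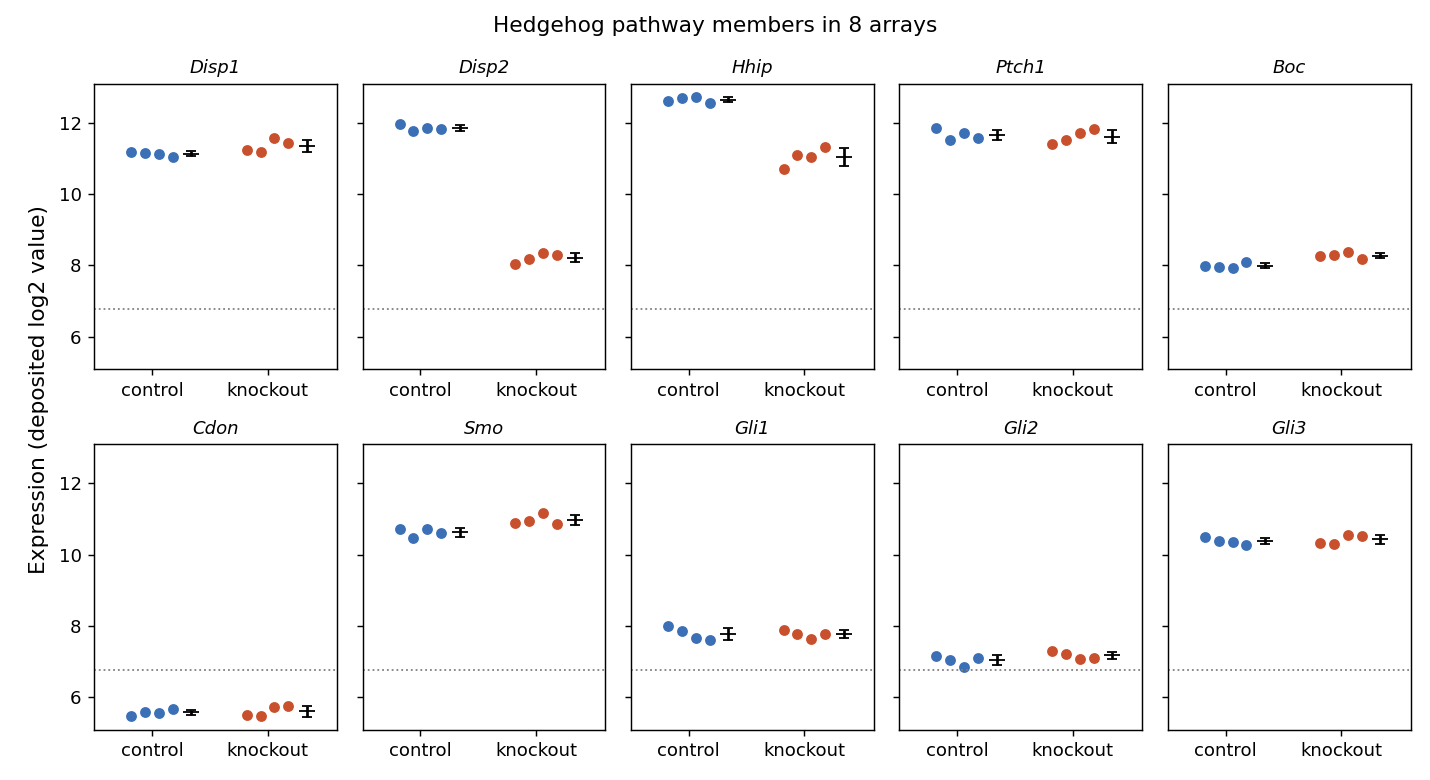
Log2 level (vertical axis) of the 10 pathway genes in 4 control and 4 knockout arrays; points are arrays in the order of their numbers, the bar beside them is the group mean with its SD, and the dotted line is the 95th percentile of olfactory and vomeronasal receptor genes (6.77). Disp2 and Hhip lie lower in all 4 knockout arrays, while the groups of Ptch1, Cdon, Gli1, Gli2 and Gli3 overlap.

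The receptor and its co-receptors differed little between the groups. Ptch1, the ligand receptor that holds Smoothened inactive, was at 11.84, 11.52, 11.69 and 11.58 in the controls and at 11.39, 11.52, 11.70 and 11.81 in the knockouts. The groups overlapped over most of their range, and the interval of the difference ran from -0.28 to 0.18. Boc, a membrane co-receptor of the immunoglobulin superfamily, was at 7.99, 7.96, 7.91 and 8.09 in the controls and at 8.25, 8.29, 8.36 and 8.19 in the knockouts. The groups of Boc did not overlap, by a margin of 0.10, and the difference was 0.29 (SE 0.06). Cdon, its close relative, had 5.48 to 5.67 in the controls and 5.46 to 5.75 in the knockouts, which is under the guide of 6.77, so whether these cells express it cannot be said from its probe set.

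Smo, the membrane protein that carries the signal onward, was at 10.72, 10.46, 10.73 and 10.61 in the control arrays and at 10.89, 10.95, 11.18 and 10.86 in the knockout arrays. The knockout arrays were all above the controls by a margin of 0.13, and array 7 was highest. The difference was 0.34 (SE 0.09), 126% of the control level. It lay at the edge of the threshold: the call was lost when any 1 of the 8 arrays was left out, and that of Boc when control array 2 or knockout array 6 was left out. Neither passed with hepatocyte and endothelial marker means as covariates, at differences of 0.35 for Smo and 0.29 for Boc.

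The groups of all 3 Gli genes overlapped. Gli1, an activator and the most used readout of pathway activity, was at 7.99, 7.85, 7.67 and 7.60 in the controls and at 7.90, 7.77, 7.63 and 7.78 in the knockouts. All knockout values lay inside the control range, and the interval of the difference was -0.22 to 0.21. Gli2, the main activator downstream of Smoothened, was at 7.16, 7.03, 6.84 and 7.10 in the controls and 7.29, 7.22, 7.09 and 7.10 in the knockouts, close to the guide for unexpressed genes, with an interval of -0.04 to 0.32. Gli3, which acts mostly as a repressor, was at 10.48, 10.39, 10.34 and 10.28 and at 10.34, 10.30, 10.56 and 10.51, with an interval of -0.12 to 0.22. The upper ends of the intervals of Gli1 and Gli3 were about the size of the difference measured for Disp1. As these values carry no test, no limit on a true change is read from them. Gli1 also lay closer than Gli3 to the guide, where differences can be compressed.

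Of the 10 genes, 2 were higher (Boc and Smo) and 2 lower (Disp2 and Hhip) at an adjusted p under 0.05 in limma, where 7.38% of all 19938 genes passed in either direction (3.76% higher, 3.63% lower). The same 4 genes were those whose groups did not overlap, which held for 12.7% of all genes (6.38% higher, 6.32% lower). The median difference of the 10 genes was 0.04, against -0.02 over all genes. Since the group was chosen with this comparison known, nothing is read from these counts. The SDs within a group ran from 0.07 (Disp1, controls) to 0.26 (Hhip, knockouts), and 5 of the 10 genes had their highest knockout value in array 7.

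Other genes of the pathway were taken from lists of ligand handling, reception, signal transduction and targets, which were written with some results of these data known (those of Bmp4 and Sfrp1, for example). Of 61 listed genes 55 were measured and 6 are not analysed here. Of the 55, 6 rose and 6 fell (limma adjusted p under 0.05), 21.8% against 7.38% of all genes, with a median difference of -0.004. The list is too short and too much informed by earlier results for this share to be more than a description.

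Among 8 genes of ligand production and release, 1 rose and 1 fell (25.0% against 7.38% of all genes), and both moved by at least 2-fold. Dhh, desert hedgehog, was at 9.21, 8.97, 9.20 and 8.81 in the controls and at 8.04, 7.95, 8.07 and 8.01 in the knockouts. Its knockout arrays were nearly alike and all below the controls. Dhh fell by 1.03 on the log2 scale (SE 0.09, limma adjusted p = 0.000111), to 48.9% of the control level. The endothelial marker mean was 0.63 lower in the knockouts, with overlapping groups (8.43 to 11.31 and 8.52 to 10.02). Of its 10 markers, 1 was called lower and 0 higher. With the hepatocyte and endothelial means as covariates the difference of Dhh was -1.06, and without control arrays 1 and 4 it was -1.07. Scube1, a secreted protein of the family whose member Scube2 helps release lipid-bearing ligands, was at 9.49, 9.70, 9.79 and 9.82 in the controls and at 11.40, 11.30, 11.28 and 11.14 in the knockouts. All knockout arrays were more than 1 unit above all controls. Scube1 rose by 1.58 (SE 0.08, limma adjusted p = 5.39e-06), which is 2.99-fold. The portal fibroblast mean was higher in all the same arrays, and its part in the change of Scube1 was not tested. Nor was its part, or that of the lower stellate mean, tested for any other gene reported here. Shh had 7.43 ± 0.24 and 7.46 ± 0.13, and Ihh 8.37 ± 0.16 and 8.24 ± 0.19, in controls and knockouts (SD, n = 4 each). The groups of both ligands overlapped, with intervals of the difference of -0.23 to 0.29 and -0.38 to 0.12. Shh lay close to the guide for unexpressed genes, so little can be said of its level.

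Among 8 measured genes of ligand binding and reception, 1 rose and 1 fell (25.0% against 7.38% of all genes), both glypicans, which are heparan sulphate proteoglycans of the cell surface. Gpc3, which binds hedgehog ligands in competition with Patched, was at 8.64, 9.26, 9.04 and 8.54 in the controls and between 9.82 and 10.07 in the 4 knockout arrays. It rose by 1.09 (SE 0.15, limma adjusted p = 0.00176), or by 0.81 without control arrays 1 and 4, its lowest controls. Gpc4 went from 13.03 ± 0.06 to 12.44 ± 0.03 (SD, n = 4 each) and fell by 0.60 (SE 0.05, limma adjusted p = 8.98e-05). Gas1 is the third co-receptor beside Boc and Cdon, and was also in the portal fibroblast marker list. It had 10.97 ± 0.09 and 11.22 ± 0.16 (SD, n = 4 each, limma adjusted p = 0.141) and overlapping groups. Without knockout array 8 its adjusted p in limma was 0.0446, at a difference of 0.32.

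**Figure D3:**
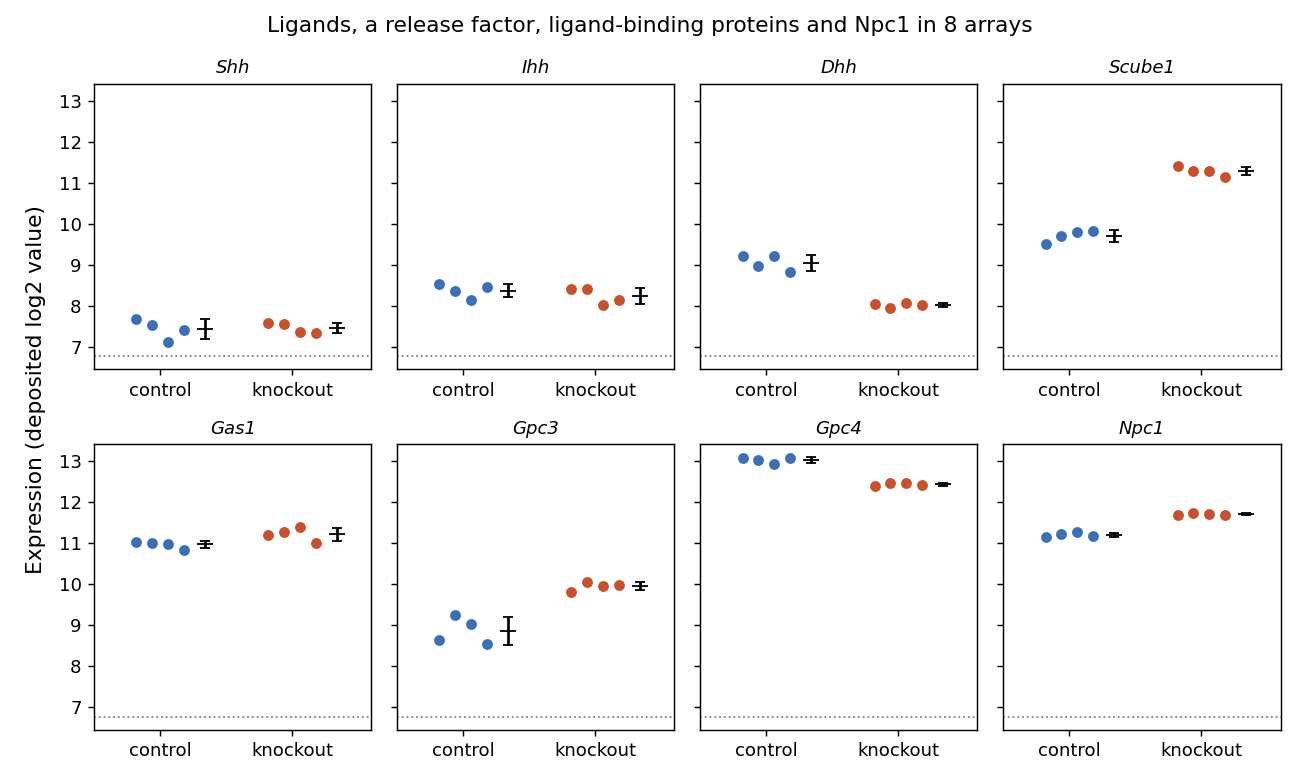
Log2 level (vertical axis) of 3 ligands, the secreted Scube1, the co-receptor Gas1, 2 glypicans and the cholesterol exporter Npc1 in 4 control and 4 knockout arrays; points are arrays in the order of their numbers, the bar beside them is the group mean with its SD, and the dotted line marks 6.77, the 95th percentile of olfactory and vomeronasal receptor genes. Dhh and Gpc4 are lower, and Scube1, Gpc3 and Npc1 higher, in all 4 knockout arrays, while Shh and Ihh overlap.

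A further list held the machinery between Smoothened and the Gli proteins. Shares of called genes are not compared between the 4 pathway lists, which were written with some results known. Of 24 measured genes of transduction, the cilium and Gli control, 1 rose and 1 fell, 8.33%, which is near the 7.38% of all genes. Ulk3, a kinase that acts on Gli proteins, rose by 0.27 (SE 0.06, limma adjusted p = 0.0269), and Tulp3, an adaptor that brings receptors into the cilium, fell by 0.33 (SE 0.08, limma adjusted p = 0.0387). Both calls were fragile. That of Ulk3 was lost without control array 1, 2 or 4 or knockout array 6, 7 or 8 (adjusted p in limma up to 0.0808), and that of Tulp3 without any array except knockout 7 (up to 0.12). Sufu, the inhibitor that binds Gli proteins, had a difference of 0.08 (interval -0.06 to 0.22), and Kif7, the ciliary kinesin of the pathway, one of 0.04 (interval -0.09 to 0.18).

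Genes reported elsewhere as Gli targets went both ways. Of 15 measured, 3 rose and 3 fell, 40% against 7.38% of all genes, in a list that holds genes whose changes were already known. Its median difference was -0.06. Sfrp1, a secreted Wnt antagonist, rose by 3.71 (SE 0.15, limma adjusted p = 1.19e-06) from a control level of 6.85, which is close to the guide for unexpressed genes, so its size is uncertain. Bmp4, a ligand of the BMP family, rose by 0.69 (SE 0.08, limma adjusted p = 0.000571), and Rab34, a small GTPase of early cilium formation, by 0.32 (SE 0.08, limma adjusted p = 0.0484). Bcl2, an inhibitor of apoptosis, fell by 0.65 (SE 0.08, limma adjusted p = 0.000777), Ccnd2, a cyclin of the G1 phase, by 0.47 (SE 0.06, limma adjusted p = 0.00148), and Snai1, a zinc-finger repressor, by 0.36 (SE 0.08, limma adjusted p = 0.0219). The call of Rab34 was lost under median centring and without any array except control 3 (adjusted p in limma up to 0.136), and that of Snai1 when any array other than control 3 or knockout 5 was dropped (up to 0.0678). With hepatocyte and endothelial means as covariates neither Rab34 nor Snai1 passed (limma adjusted p = 0.0507 and 0.0629), at differences no smaller, 0.38 and -0.37. The listed targets did not share a direction, and Hhip had a large fall while the groups of Ptch1 and Gli1 overlapped. Pathway activity itself was not tested.

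**Figure D4:**
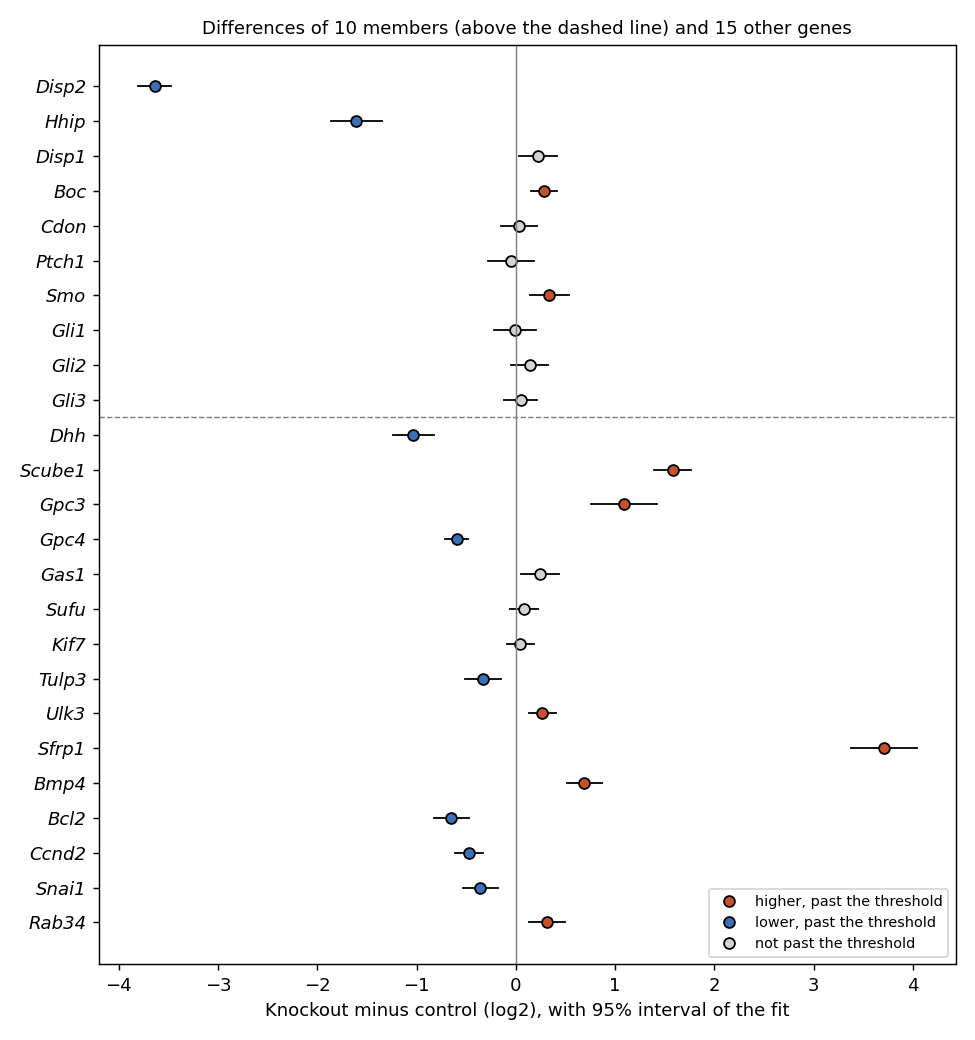
Difference of knockout minus control (horizontal axis, log2) with the 95% interval of the limma fit for the 10 pathway genes, above the dashed line, and 15 other genes of the lists; orange points passed the threshold as higher, blue points as lower, and grey points did not pass. The 2 falls of Disp2 (-3.64) and Hhip (-1.61) stand apart from the other 8 genes, whose differences lie between -0.05 and 0.34.

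Dispatched and Patched share a sterol-sensing domain with proteins of cholesterol transport and control. Of 7 measured relatives, 1 rose and 0 fell in limma (14.3% called against 7.38% of all genes, and 1 at an unadjusted p under 0.05). Npc1, which exports cholesterol from lysosomes, was at 11.15, 11.23, 11.27 and 11.19 in the controls and at 11.70, 11.75, 11.72 and 11.68 in the knockouts. The groups were 0.41 apart, and Npc1 rose by 0.51 (SE 0.05, limma adjusted p = 0.000183). Disp3, the third Dispatched relative, had 6.89 ± 0.15 and 6.91 ± 0.11 (SD, n = 4 each), near the guide for unexpressed genes. The differences of the measured relatives ran from -0.14 to 0.51. Disp2 ranked first among the falls of all genes, so no relative could have matched its fall, and nothing is read from that.

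Genes next to Disp2 and Hhip on the chromosome were read from the RefSeq gene table (GRCm38.p6), the 3 nearest measured ones on each side. Of these 12, 2 fell and 0 rose (16.7% against 7.38% of all genes, and 3 at an unadjusted p under 0.05). Both lay on the same side of Disp2. Inafm2 was at 10.12, 9.83, 9.94 and 10.14 in the controls and at 9.42, 9.30, 9.36 and 9.25 in the knockouts, and fell by 0.67 (SE 0.08, limma adjusted p = 0.000704). Ccdc9b was at 10.06, 9.63, 9.74 and 9.95 and at 9.33, 9.20, 9.36 and 9.12, and fell by 0.59 (SE 0.10, limma adjusted p = 0.00608). In both, all knockout arrays lay below all controls. Phgr1, which sits between this pair and Disp2, had a difference of -0.03 (interval -0.15 to 0.10), and on the other side Knstrn had one of -0.35 (limma adjusted p = 0.365). The 6 measured neighbours of Hhip had differences of -0.09 to 0.14, and none passed in limma.

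**Figure D5:**
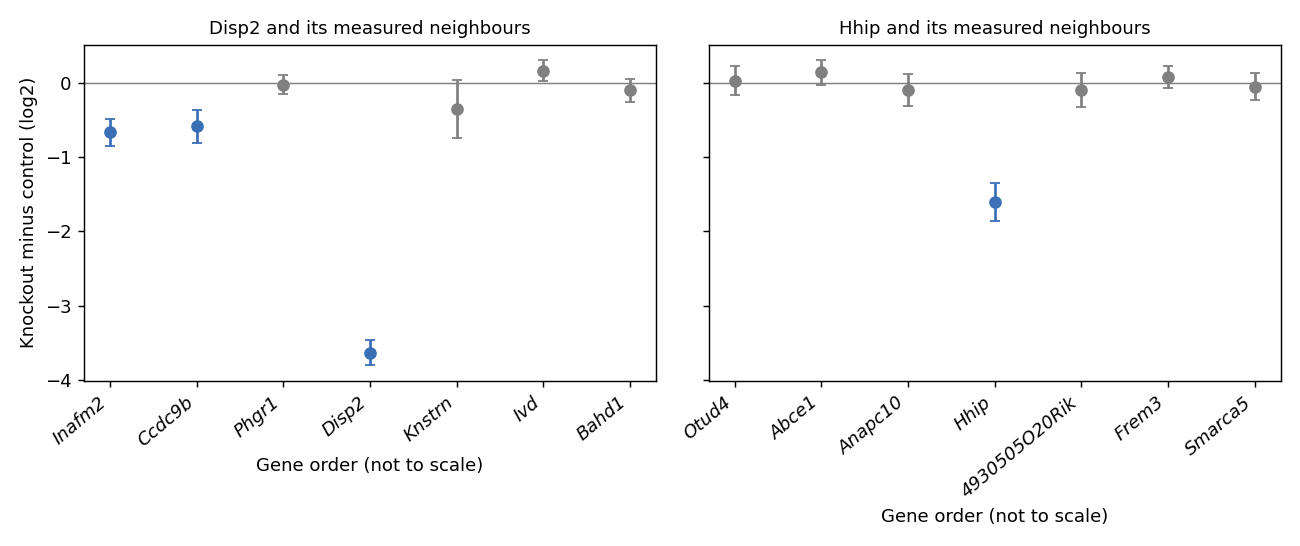
Difference of knockout minus control (vertical axis, log2, with the 95% interval of the limma fit) for Disp2, Hhip and the 3 nearest measured genes on each side, in chromosomal order and not to scale; blue points passed the threshold as lower and grey points did not pass. Inafm2 (-0.67) and Ccdc9b (-0.59) are lower beside Disp2 (-3.64), while the 6 neighbours of Hhip (-1.61) lie between -0.09 and 0.14.

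The genes whose pattern over the 8 arrays was most like that of Disp2 and of Hhip were found by the Euclidean distance between log2 levels less their control mean. Nearest to Disp2 was Bmp10, a BMP ligand, at a distance of 0.56, with a difference of -3.58. Egfem1 (1.47), Raet1d (2.02), which has near-identical relatives, Dcdc2a (2.39) and Epor, the erythropoietin receptor (2.81), followed at larger distances. No gene fell as far as Disp2, which ranked first among all falls and was chosen with its fall known. Nearest to Hhip were Nr1h4, the bile acid receptor, at 0.48, the growth factor receptor Fgfr2 at 0.50, the adhesion molecule Esam at 0.50, the glutamate receptor subunit Grin2b at 0.52 and the ubiquitin ligase Rnf152 at 0.56. Their differences ran from -1.65 (Grin2b) to -1.41 (Fgfr2). These genes were picked for this pattern, so the values are a description.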

How the data were processed

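Per the labels' protocols, the authors normalized the arrays with the Robust Multichip Algorithm (RMA), and the deposited values are on a log2 scale, with 1 value for a probe set on each array. RMA compresses differences of dim and very bright probe sets. The RMA version, like any batch or scan date, is not given in the sources used here, and no batch was tested. The deposited values ran from 4.19 to 14.4 with array medians of 7.42 to 7.47. The number of arrays limits the precision.

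Of 35556 probe sets, 21789 had 1 symbol, and the highest-mean probe set stood for each of 19938 genes. Knockout minus control was fitted over all 8 arrays with limma 3.58.1 in R 4.3.3 (lmFit and eBayes, two-sided, Benjamini-Hochberg over all genes, threshold 0.05), with no covariate, fold threshold or dim filter. Intervals are 95% intervals of that fit. This fit was tested on simulated data with known changes, 50 genes for each size. It recovered 80% of changes of 0.5 log2 units and 98% to 100% of those of 1, 2 and 3, with 10 false calls. Changes under 0.5, the size of many differences reported here, were not simulated. Lhx2 and marker means had exact permutation tests over 70 assignments (scipy 1.17.1). Alternatives were median centring, quantile normalization, a dim filter, array weights, robust eBayes with a trend, averaged probe sets, other thresholds, marker means as covariates, and arrays left out. The 10 genes, the lists, the tests and the alternatives were chosen with earlier results of these data known. Genes named were the 10, Lhx2, a fixed few of the lists, up to 6 called genes a list, neighbours, the 5 nearest in pattern and marker genes. Disp3 was named after its values were seen.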

Additional observations from a re-analysis of the deposited data

Results flagged for a closer look

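Among 76 groups of 4 arrays examined (the genes and marker means reported), 2 had 1 array far from the other 3 by Dixon's ratio of gap to range, where chance gives about 1 in 20. For Bcl2 in the control group the ratio was 0.857, with control array 1 at 12.35 and the others at 12.07 to 12.11. For the mean of 5 cholangiocyte markers in the knockout group it was 0.971, with array 5 at 6.72 and the others at 6.63. Without control array 1 Bcl2 kept its call. No level of the 10 pathway genes was flagged this way.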

How the results depend on the processing

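As a description with no test, the differences of Disp2 and Hhip ran from -3.68 to -3.58 and from -1.70 to -1.47 over the alternatives, and the count of the 10 genes called lower was 2 in each. The number higher was 2 and came to 1 with marker means as covariates (Disp1, difference 0.32) or without controls 1 and 4 (Boc), to 0 at an adjusted p under 0.01 or with at least 1.5-fold, and to 0 to 1 when 1 array was left out. The Lhx2 difference ran from -0.73 to -0.59 without 1 array. Over all genes, 749 higher and 723 lower became 371 and 405 without controls 1 and 4, 386 and 389 at an adjusted p under 0.01, 284 and 239 with at least 1.5-fold, and 502 to 790 and 487 to 677 when 1 array was left out. Of the wider pathway genes 6 rose and 6 fell, 4 to 6 of each without 1 array, and 3 fell with at least 1.5-fold, where the count of sterol-sensing relatives higher went from 1 to 0. The calls of Dhh, Scube1, Gpc3, Gpc4, Bcl2, Bmp4 and Sfrp1 held under every alternative. No called difference changed sign. No paired analysis was made, because the labels give no pairing of control and knockout samples. Dim probe sets (Cdon, Gli2 and, among the ligands, Shh) limit what can be said of those genes.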
